A study of Mus musculus with 4 samples.

Results

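The genes described here are the constant parts of the antibody heavy chains (Igha, Ighm and Ighd), of the antibody light chains (Igkc for kappa, Iglc1, Iglc2 and Iglc3 for lambda), and Jchain, which encodes the joining chain of polymeric antibody. All 8 were found by symbol among the 32285 genes of the deposited single-cell matrix. The cells came from the epithelium of the small intestine of C57BL/6J male mice. From 8 weeks of age, for 7 weeks and until 15 weeks of age, all mice ate high-fat chow to which l-NAME (a blocker of nitric oxide synthases) had been added. In 2 samples the diet also held 3-indolepropionic acid (IPA, 562.5 mg per kg diet), and in 2 control samples it did not. Each sample pooled 2 mice, Peyer's patches were cut away, the epithelium of jejunum and ileum was shaken loose in EDTA and DTT, and DAPI- cells were sorted as live. The matrix joins the 4 samples, and a number from 1 to 4 at the end of each cell barcode tells 4 libraries apart. No source used here ties these numbers to the samples, so the libraries are called 1 to 4, no value is compared between diets, and a library is not a replicate of a group.

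B cells carry antibody on their surface, mostly as IgM and IgD before they switch class. Plasma cells are the antibody-secreting cells that arise from them, and most of those in the gut wall make IgA, which the joining chain holds as dimers and which the epithelium carries into the lumen. Each B cell or plasma cell normally uses a single light chain, kappa or lambda, and most mouse antibody is kappa. Enterocytes, the absorptive cells of the epithelium, are not known to make antibody, and immunoglobulin transcripts counted in their droplets serve here as the measure of free RNA. Where those transcripts came from was not tested.

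The genes lie on 4 chromosomes of the mm10 build (GRCm38), by the GENCODE M21 annotation. Igha spans chr12:113254830-113260236, Ighd chr12:113406604-113416324 and Ighm chr12:113418558-113422730, all on the minus strand. Igkc spans chr6:70726435-70726966 on the plus strand and Jchain chr5:88519809-88527891 on the minus strand. Iglc1 (chr16:19061618-19062071), Iglc3 (chr16:19065230-19065681) and Iglc2 (chr16:19198396-19200351) are on the minus strand of the same chromosome.

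Iglc2 and Iglc3 are close copies, and Iglc1 is more distant. The last 90 coding bases of the 3 genes, stop codon included, carry capitals here at each of the 27 positions where the 3 genes are not all alike. They are read on the minus strand of mm10 at chr16:19061752-19061841 for Iglc1, chr16:19198536-19198625 for Iglc2 and chr16:19065365-19065454 for Iglc3.
Iglc1: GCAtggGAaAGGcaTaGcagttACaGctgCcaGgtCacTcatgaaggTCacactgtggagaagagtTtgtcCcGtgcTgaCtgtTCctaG
Iglc2: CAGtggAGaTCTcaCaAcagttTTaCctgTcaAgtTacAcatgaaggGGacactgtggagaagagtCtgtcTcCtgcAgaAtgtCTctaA
Iglc3: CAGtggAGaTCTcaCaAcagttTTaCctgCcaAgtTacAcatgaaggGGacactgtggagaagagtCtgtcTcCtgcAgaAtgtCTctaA
Iglc2 and Iglc3 differed at 1 of these 90 bases and were 96.2% identical over the coding sequence with 14 of 140 aligned positions differing after the stop codon. Iglc1 and Iglc2 were 73.7% identical over the coding sequence. How reads that match both Iglc2 and Iglc3 were counted is not given in the sources used here, so the split between them is reported as uncertain.

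The secreted forms of Igha and Ighm share a tail that ends in a cysteine followed by a tyrosine, and that cysteine is the residue through which the joining chain is attached. The last 60 coding bases of both, read on the minus strand at chr12:113258768-113258827 for Igha and chr12:113420867-113420926 for Ighm, are printed because they show the end of the transcript that a J chain partner must have, with the cysteine codon in capitals.
Igha: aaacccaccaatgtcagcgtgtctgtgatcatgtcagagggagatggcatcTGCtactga
Ighm: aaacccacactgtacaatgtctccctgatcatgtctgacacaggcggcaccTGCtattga

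Barcodes were kept with at least 500 UMIs (unique molecular identifiers, each a counted molecule), at least 250 genes and at most 25% mitochondrial UMIs, which left 6174, 7122, 6307 and 6185 of 11558, 11987, 11775 and 8957 barcodes in libraries 1 to 4. After likely doublets were taken out, cells were clustered without any of the 393 immunoglobulin and J chain genes, so that the members' own levels did not make the classes. The clusters called plasma-like held 76, 7, 37 and 7 cells in libraries 1 to 4, those called B-like 25, 2, 118 and 5, those called T-like 325, 4, 1236 and 5, and the enterocyte-like ones 4673, 5169, 3371 and 5193. Of the fixed plasma cell markers, Mzb1 had a UMI in 94.5% of plasma-like cells, against 54.0% of B-like cells, and Tnfrsf17 in 85.0%, against 0 of 150 B-like cells, which allows a share of up to 2%. Of the B cell markers, Ms4a1, which encodes CD20, had a UMI in 0.787% of plasma-like cells, against 83.3% of B-like cells, and Pax5 in 0 of 127, against 51.3%. Other B cell markers were shared: Cd79a had a UMI in 95.3% of plasma-like cells, against 98.0% of B-like cells, Ly6d in 93.7%, against 90.7%, Cd79b in 87.4%, against 92.0%, and Vpreb3 in 64.6%, against 70.0%. Among the kept barcodes, 75 barcode sequences occurred in more than 1 library.

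All 124 plasma-like cells with enough heavy chain UMIs used Igha, and nearly all used kappa. A cell was called for a heavy chain gene when it had at least 10 heavy chain UMIs and a single gene held at least 80% of them. Igha was called in 124 of 124 callable plasma-like cells (95% exact Clopper-Pearson interval 97.1% to 100%; intervals here cover counting error only), 73, 7, 37 and 7 of them in libraries 1 to 4. The other 3 of the 127 plasma-like cells had too few UMIs. By the same limits on light chain UMIs, kappa was called in 121 of 125 cells (96.8%, 92.0% to 99.1%), lambda in 2 and neither in 2.

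The antibody transcripts made up most of what these cells contained. Over the 124 cells the lowest, median and highest counts were 10, 4202 and 8357 UMIs for Igha, 0, 13100 and 33888 for Igkc, and 11, 1684 and 3175 for Jchain. Immunoglobulin and J chain genes together took a median of 74.2% of a cell's UMIs. A cell had a median of 3.05 light chain UMIs and 0.388 Jchain UMIs per heavy chain UMI. The medians of Igha were 4341, 3130, 3688 and 3029 UMIs in libraries 1 to 4. The quartiles of library 1, 3758 and 5487 UMIs, lay above the medians of libraries 2, 3 and 4. Those of library 3, 2467 and 5152 UMIs, enclosed all 4 medians. A few cells of libraries 1 and 2 lay far below the rest: 5 plasma-like cells had under 1000 UMIs in all.

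**Figure D1:**
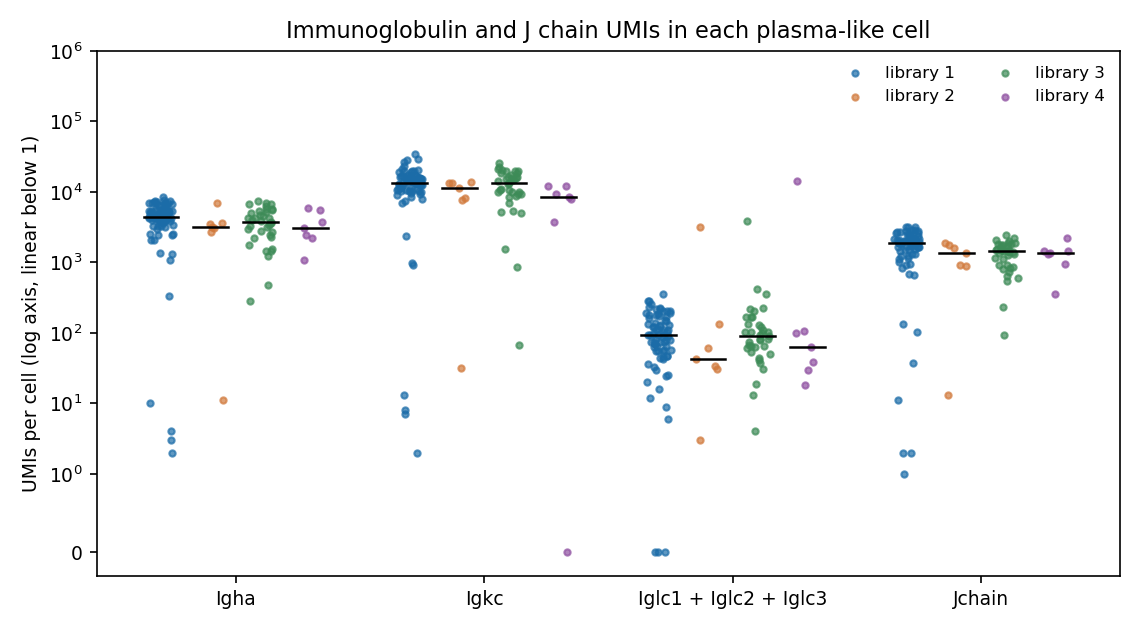
UMIs per plasma-like cell (vertical log axis, linear below 1) of Igha, Igkc, the 3 lambda genes summed and Jchain, by library; each point is a cell and each line the median of all plasma-like cells of that library. Most cells lie near the medians of 4202 Igha, 13100 Igkc and 1684 Jchain UMIs, and a single cell each in libraries 2, 3 and 4 lies far above the other cells in lambda UMIs (3118, 3836 and 14020).

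Cells with more Igha also had more Jchain and Igkc. Over 72 cells of library 1 with Igha and kappa calls, Pearson's r of log2 UMIs was 0.87 between Igha and Jchain, 0.69 between Igha and Igkc, and 0.83 between Igkc and Jchain. Over 36 such cells of library 3 it was 0.88, 0.91 and 0.92. Per UMI outside the immunoglobulin loci, r in library 1 was 0.63 for Igha and Jchain and 0.35 for Igha and Igkc. For Igkc and Jchain it was 0.59. In library 3 these were 0.65, 0.75 and 0.75. Both genes of a pair were divided by the same count of the cell, which can by itself raise r. Cells of 1 library share its depth and pool of mice, so these are descriptions.

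Other heavy chains were rare within the Igha-called cells. Ighm, the constant gene of IgM, summed to 196 UMIs over 8 of the plasma-like cells, against 520176 Igha UMIs in the class, and no such cell had an Ighd UMI, which allows a level of up to 1.47 CPM (UMIs per 1000000 UMIs of the class) in library 1. The 8 cells had 9 to 37 Ighm UMIs beside 1767 to 6404 Igha UMIs. Ighg2b, a constant gene of IgG, summed to 232 UMIs over 12 cells, with 62 in the highest, and Ighg3 to 26 UMIs. Ighe was at 0 UMIs.

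Lambda use came from single cells. A plasma-like cell of library 4 had 12954 Iglc3, 1025 Iglc2, 41 Iglc1 and 0 Igkc UMIs beside 3761 Igha and 1343 Jchain UMIs. A plasma-like cell of library 3 had 3814 Iglc3, 19 Iglc2, 3 Iglc1 and 68 Igkc UMIs beside 1560 Igha and 644 Jchain UMIs. A cell of library 2 held 13208 Igkc and 3034 Iglc1 UMIs, 80.9% kappa, and was called kappa at the limit of 80%. The cells with neither call were shallow cells of library 1, with 958 and 781 UMIs in all.

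Kappa-called cells carried lambda UMIs at a low level. In library 1, Iglc2 had a UMI in 71 of 72 kappa-called cells and gave 0.541% of their light chain UMIs, Iglc1 0.131% and Iglc3 0.118%. Over the 124 callable cells the median was 91.5 lambda UMIs. The lambda variable gene Iglv1 had at least 10 UMIs in 92 of 121 kappa-called cells, with a median of 26 and a highest value of 254.

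Variable gene UMIs were few beside constant gene UMIs: plasma-like cells had 2200 Ighv, 3417 Igkv and 6053 Iglv UMIs in all, over 185, 160 and 3 genes. The libraries read the 3' end of transcripts, and how reads of rearranged variable genes were aligned is not given in the sources used here. Of 127 plasma-like cells, 68 had at least 10 Ighv UMIs, and in 64 of them a single Ighv gene held at least 80%, with 27 different genes in all. For Igkv, 105 cells had at least 10 UMIs and 97 had 1 dominant gene, of 30 genes in all. Both were dominant in 57 cells, which showed 31 pairs. The pair of Ighv7-1 with Igkv2-112 was found in 12 cells, all of library 1, Ighv1-64 with Igkv3-2 in 5 cells of library 1, and Ighv1-26 with Igkv10-94 in 4 cells of library 1. Whether cells that share a pair share a rearrangement was not tested.

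The cell with by far the most Ighm stood outside the plasma-like class. In library 3, a cell of an unnamed cluster had 1765 Ighm, 3555 Igkc and 451 Jchain UMIs and 0 Igha UMIs among 47995 UMIs. It had 15 Mzb1 UMIs and 1784 UMIs of Fabp1, an enterocyte fatty acid carrier. Fabp1 also had a UMI in 127 of 127 plasma-like and 149 of 150 B-like cells, and its level there was not compared. No other of the 44277 barcodes had 100 or more Ighm UMIs.

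B-like cells used Ighm and Ighd, and their counts were far smaller. The median B-like cell had 5 Ighm, 2 Ighd and 18 Igkc UMIs among 2795 UMIs in all. Ighm and Ighd both had a UMI in 117 of 150 B-like cells (78.0%). Ighm and Ighd together held 88.7% of the 1309 heavy chain UMIs of the class (86.9% to 90.4%), with 91.8% in library 1 and 87.5% in library 3. Ighd gave 26.8% of Ighm plus Ighd UMIs in library 1 and 28.1% in library 3.

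A minority of B-like cells carried a switched heavy chain. With at least 3 heavy chain UMIs and a share of at least 80%, 126 of 141 B-like cells were called for Ighm plus Ighd, 5 for Igha, 3 for Ighg1 and 7 for neither. The 5 Igha-called cells had 8 to 12 Igha UMIs and no Ighm or Ighd UMI. The strongest Ighg1 cell had 20 Ighg1 and 5 Igha UMIs beside 91 Igkc and 107 lambda UMIs among 15617 UMIs. The weakest Ighg1 call rested on 3 UMIs. Some cells called for neither also had no Ighm or Ighd UMI. One of them had 9 Ighg1 and 4 Igha UMIs, and another had 5 Ighg1, 2 Igha and 1 Ighg2b UMIs. Jchain had a UMI in 1 of 25 and 13 of 118 B-like cells of libraries 1 and 3, against 11.7% and 6.39% of T-like cells, which should not make it, at median depths of 3013 and 2811 against 3583 and 3776 UMIs. Thinned to 2000 UMIs, 0 of 22 and 7 of 112 B-like cells had a Jchain UMI (0 to 15.4% and 2.55% to 12.45%), against 6.08% and 3.14% of T-like cells (3.64% to 9.44% and 2.21% to 4.32%). The intervals overlap in both libraries.

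By share of UMIs, light chains were mixed in B-like cells where most plasma-like cells were almost pure. By count, the median was 6 lambda UMIs in B-like cells, against 91.5 in the 124 callable plasma-like cells. Lambda held 0.791%, 4.84%, 1.61% and 21.1% of light chain UMIs in plasma-like cells of libraries 1 to 4, against 27.9% in B-like cells of library 1 and 29.0% in those of library 3. Igkc and a lambda gene both had a UMI in 144 of 150 B-like cells, and both had 3 UMIs or more in 121 of them. Iglc2 alone had a UMI in 96.0% and 84.7% of B-like cells of libraries 1 and 3, against 0.308% and 0.728% of T-like cells. By the limits above, 55 of 148 B-like cells were called kappa, 3 lambda and 90 neither. The 150 B-like cells had 17 Igkv and 3 Iglv UMIs in all. Whether any of them used both a kappa and a lambda chain was not tested. In the lambda of B-like cells, Iglc2 held 39.6%, Iglc3 46.0% and Iglc1 14.4% in library 1, and Iglc2 46.8%, Iglc3 32.5% and Iglc1 20.7% in library 3.

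**Figure D2:**
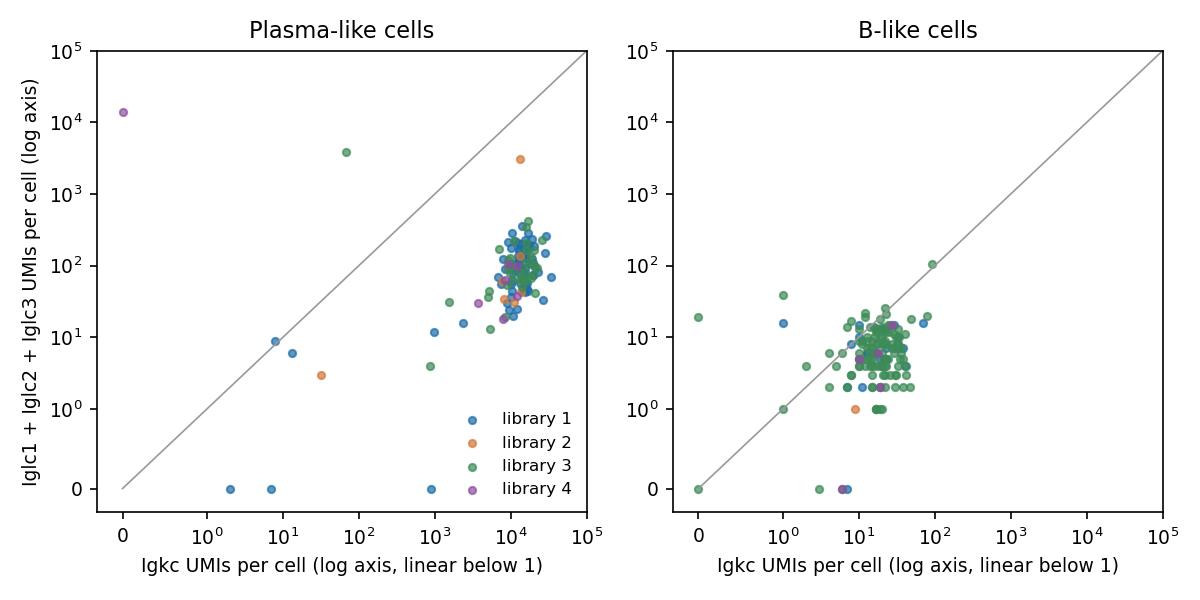
Igkc UMIs (horizontal) and summed Iglc1, Iglc2 and Iglc3 UMIs (vertical) in each plasma-like cell (left) and each B-like cell (right), both axes log and linear below 1, with equal counts on the grey line. Most plasma-like cells lie far below the line, 2 lambda cells lie far above it and a few shallow cells lie near it, while B-like cells have medians of 18 Igkc and 6 lambda UMIs.

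Plasma-like cells were set against B-like cells of the same library in non-Ig CPM, UMIs per 1000000 UMIs outside the immunoglobulin and J chain genes, so that the antibody load does not press down other genes. A gene with at least 100 non-Ig CPM in either class was counted as higher or lower at a 4-fold difference. With 1 library a comparison there is no test, and counts under 3 were set to 3. Of 1826 genes outside the loci in library 1, 12.8% were higher and 13.2% lower in plasma-like cells, and of 1758 in library 3, 13.7% were higher and 10.1% lower. These genes made the clusters, so their differences describe the classes. Among the 8 members, 5 were higher and 2 lower in each library.

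Igha was 3447-fold higher in plasma-like than in B-like cells of library 1 and 2381-fold higher in library 3. These folds rest on 16 and 80 Igha UMIs in B-like cells, with 11 of the 16 in 1 cell. Igkc was 325-fold and 268-fold higher. Jchain stood at 184441 non-Ig CPM in plasma-like and 43.7 in B-like cells of library 3, and at 252809 and 11.4 (a single UMI) in library 1. Iglc2 was 11.6-fold and 7.06-fold higher. Iglc1 was 7.79-fold higher in library 1 and 3.70-fold, under the limit, in library 3, and Iglc3 was 2.18-fold, under the limit, in library 1 and 20.6-fold higher in library 3, where 1 cell gave 3814 of its 4840 UMIs.

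Ighm and Ighd went the other way. Ighm stood at 162 non-Ig CPM in plasma-like and 1873 in B-like cells of library 1, and at 286 and 1751 in library 3. Ighd had 0 UMIs in plasma-like cells of both libraries, against 685 and 686 non-Ig CPM in B-like cells.

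Listed secretory genes were mostly higher in plasma-like cells. Mzb1, Sdc1, Derl3, Prdm1, Irf4, Txndc5, Pou2af1, Tent5c and Xbp1, which are on the list, are also fixed plasma cell markers that named the clusters. Their differences, and so part of the counts below, were in part set by that naming. Of 20 listed genes of antibody secretion and the plasma cell programme, 18 were higher in library 1 and 16 in library 3, none was lower, and the median log2 ratio was 4.11 and 3.87, against -0.05 and 0.05 over all genes tested. Xbp1, the transcription factor that expands the secretory pathway, had 3582 non-Ig CPM in plasma-like and 68.5 in B-like cells of library 1, and 3325 and 81.9 in library 3. Txndc5, a disulfide isomerase, had 5125 and 45.7 non-Ig CPM in library 1 and 4547 and 107 in library 3. Mzb1, an endoplasmic reticulum chaperone of antibody assembly, had 5677 and 639 in library 1 and 4179 and 339 in library 3.

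Tnfrsf17, which encodes the survival receptor BCMA, had 536 and 524 non-Ig CPM in plasma-like cells of libraries 1 and 3 and 0 UMIs in B-like cells. Tnfrsf13c, the BAFF receptor, had 64.2 non-Ig CPM in plasma-like and 514 in B-like cells of library 1, and 44.6 and 475 in library 3. Of the 10 listed genes of class switching and B cell help, 1 was higher and 3 lower of 5 tested in library 1, and 1 higher and 4 lower of 7 tested in library 3. The higher gene in each library was Tnfrsf17, itself a fixed plasma cell marker. Ccr10, the receptor that draws plasma cells to mucosal surfaces, had 533 and 698 non-Ig CPM in plasma-like cells and 0 UMIs in B-like cells. Of the 5 homing genes, 1 was higher, 1, Cxcr4, lower and 3 neither in library 1, and 2 were higher, 1 lower and 2 neither in library 3, beside the 12.8% higher and 13.2% lower of all genes in library 1 and 13.7% and 10.1% in library 3. Fcmr, the IgM receptor, and Fcer2a, the low-affinity IgE receptor, were the 2 tested genes of the Fc receptor list in each library. Both were lower in plasma-like cells, but both are fixed B cell markers that named the B-like class. Their direction was thus set by the naming and is no result about the list. Pigr, which carries polymeric antibody across the epithelium, stood at 2299 and 1702 non-Ig CPM in enterocyte-like cells of libraries 1 and 3.

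The genes outside the loci whose levels over 10 cell classes were most like those of Igha were Tram2, Ly6c2, Slpi, Ly6k and Prg2, with Pearson's r of 0.98, 0.97, 0.97, 0.96 and 0.95 on log2(CPM + 1), among 6195 genes of at least 50 CPM in a class. For Jchain they were Tram2, Slpi, Ly6c2, Prg2 and Tnfrsf17, with r between 0.96 and 0.97. For Ighm they were Napsa, Pou2f2, Slamf6, Map4k1 and Arhgap15, with r of 0.99 to 1.00.

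Antibody transcripts were also counted in enterocyte-like cells, at a level that differed widely between libraries. From library 1 to library 4, the enterocyte-like cells had 61.0, 3.11, 29.5 and 3.82 CPM of Igha, with a UMI in 74.8%, 8.01%, 54.3% and 9.03% of cells. The 95% exact Poisson intervals, 59.6 to 62.5, 2.83 to 3.42, 28.4 to 30.7 and 3.49 to 4.17 CPM, cover counting error only. Thinned to 5000 UMIs per cell, 28.6%, 1.71%, 15.7% and 2.05% of cells kept an Igha UMI. In the same cells and order Igkc had 96.8, 4.73, 59.3 and 4.55 CPM and Jchain 12.2, 0.665, 6.46 and 0.720 CPM. Libraries 1 and 3, with 76 and 37 plasma-like cells, were high, and libraries 2 and 4, with 7 each, were low.

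The transcripts were spread thinly over many cells. The highest enterocyte-like cell of library 1 had 10 Igha UMIs and that of library 3 had 7, and 2 and 0 cells had 10 or more. Crypt and goblet cells of the same library held a similar level: 54.6 and 56.7 CPM of Igha in library 1, and 27.4 and 29.8 CPM in library 3. Per 1000 Igha UMIs in its plasma-like cells, a library had 21.6, 18.9, 19.5 and 20.6 Igha UMIs in its enterocyte-like cells. The Igha level was higher in shallow enterocyte-like cells, with 122 CPM in the shallowest of 4 equal depth bins and 53.2 CPM in the deepest in library 1, and 62.9 and 26.7 CPM in library 3.

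The ratio of Jchain to Igkc was close to that of plasma-like cells in enterocyte-like cells, and that of Igha to Igkc was higher in enterocyte-like cells of every library. From library 1 to 4, enterocyte-like cells had 0.126, 0.140, 0.109 and 0.158 Jchain UMIs per Igkc UMI, against 0.131, 0.126, 0.105 and 0.168 in plasma-like cells. Igha per Igkc UMI was 0.631, 0.658, 0.498 and 0.840 in enterocyte-like cells, against 0.325, 0.340, 0.295 and 0.445 in plasma-like cells, 1.94, 1.94, 1.68 and 1.89 times as high. The cause of this gap was not tested. In library 1, 6 of 73 plasma-like cells reached the enterocyte-like ratio of Igha to Igkc, and in library 3, 2 of 37. Those of library 1 include a cell of 958 UMIs with 10 Igha and 13 Igkc UMIs. Those of library 3 include the lambda cell, with 68 Igkc UMIs. The plasma-like sum of library 4 also holds a lambda cell, with 3761 Igha and 0 Igkc UMIs, which raises its ratio. T-like cells had 0.616 and 0.703 Igha per Igkc UMI in libraries 1 and 3. In library 1 the highest T-like cell for each gene held 170 of the 350 Igha UMIs and 295 of the 568 Igkc UMIs.

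**Figure D3:**
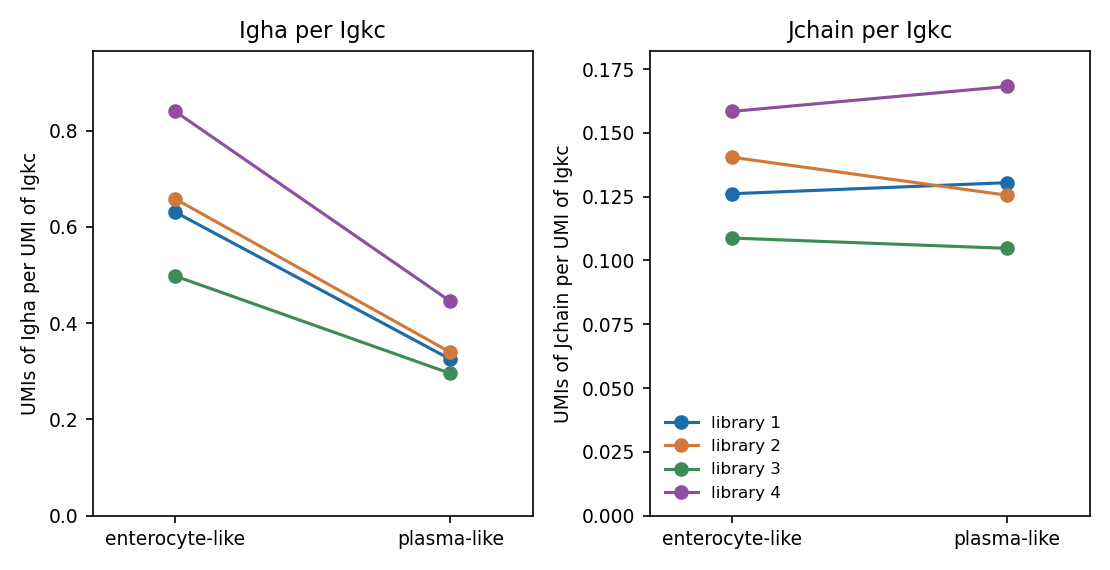
UMIs of Igha (left) and of Jchain (right) per UMI of Igkc, summed over enterocyte-like and over plasma-like cells, with a line for each library. All 4 lines of the left panel fall from enterocyte-like to plasma-like cells, while those of the right panel stay nearly level.

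Each library's lambda UMIs carried its own mix. In library 4, Iglc3 gave 88.8% of lambda UMIs in enterocyte-like cells, against 90.5% in plasma-like cells, where the single lambda cell held nearly all of them. In library 2, Iglc1 gave 88.4% in enterocyte-like and 91.6% in plasma-like cells, where 1 cell held 3034 of the 3136 Iglc1 UMIs. In library 1, Iglc1 gave 73.7% in enterocyte-like cells, 339 of 460 UMIs, but 16.7% in plasma-like cells, where Iglc2 gave 68.4%. In library 3, Iglc3 gave 45.6% in enterocyte-like and 62.3% in plasma-like cells, where 1 cell held 3814 of the 4840 Iglc3 UMIs. Lambda held 3.87%, 6.16%, 1.85% and 21.5% of light chain UMIs in the enterocyte-like cells, library by library, against 0.791%, 4.84%, 1.61% and 21.1% in plasma-like cells.

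Ighm and Ighd were far higher in T-like than in enterocyte-like cells. T-like cells of library 1 had 146 CPM and those of library 3 had 199 CPM of Ighm, against 0.0848 and 0.704 CPM in enterocyte-like cells. It had a UMI in 32.3% and 42.9% of T-like cells, whose median depths were 3583 and 3776 UMIs, and in 0.214% and 1.81% of the enterocyte-like cells, which were deeper. Thinned to 2000 UMIs, 20.3% and 29.2% of T-like cells had an Ighm UMI, against 0.0436% and 0.150% of enterocyte-like cells. Igha in the same T-like cells was 281 and 118 CPM, and 170 of the 350 Igha UMIs of library 1 were in a single cell.

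The Ighm UMIs were spread over T-like cells: the highest held 7 in library 1 and 8 in library 3, and 20 of 325 and 116 of 1236 held 3 or more. Every T-like subcluster of at least 20 cells in libraries 1 and 3 held Ighm, from 46.9 to 298 CPM. The subcluster of 251 cells in library 3 led by Trbc2 and Cd160 had 293 CPM. The one with 298 CPM, 80 cells of library 3, was led by Rgs1 and Fcer1g, held Trbc1 alone of the T cell markers among its 10 leading genes, and detected 38.1% of the T cell markers and 30% of the natural killer and innate lymphoid cell markers, so its name is less sure. Ighd stood at 7.24 and 19.0 CPM in T-like cells of libraries 1 and 3, against 0.0170 and 0.0975 CPM in enterocyte-like cells. Of the B cell markers, Cd79b had a UMI in 14.9% of T-like cells, against 92.0% of B-like cells, and others were nearly absent: Cd79a had a UMI in 0.127% of T-like cells and Ms4a1 in 0 of 1570 (up to 0.191% allowed), against 98.0% and 83.3% of B-like cells. Bank1, the next highest after Cd79b, had a UMI in 0.573% of T-like cells. Macrophage-like cells of library 1, 25 cells, had 248 CPM of Ighm, and crypt and goblet cells of library 3 had 0.533 and 0.693 CPM.

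**Figure D4:**
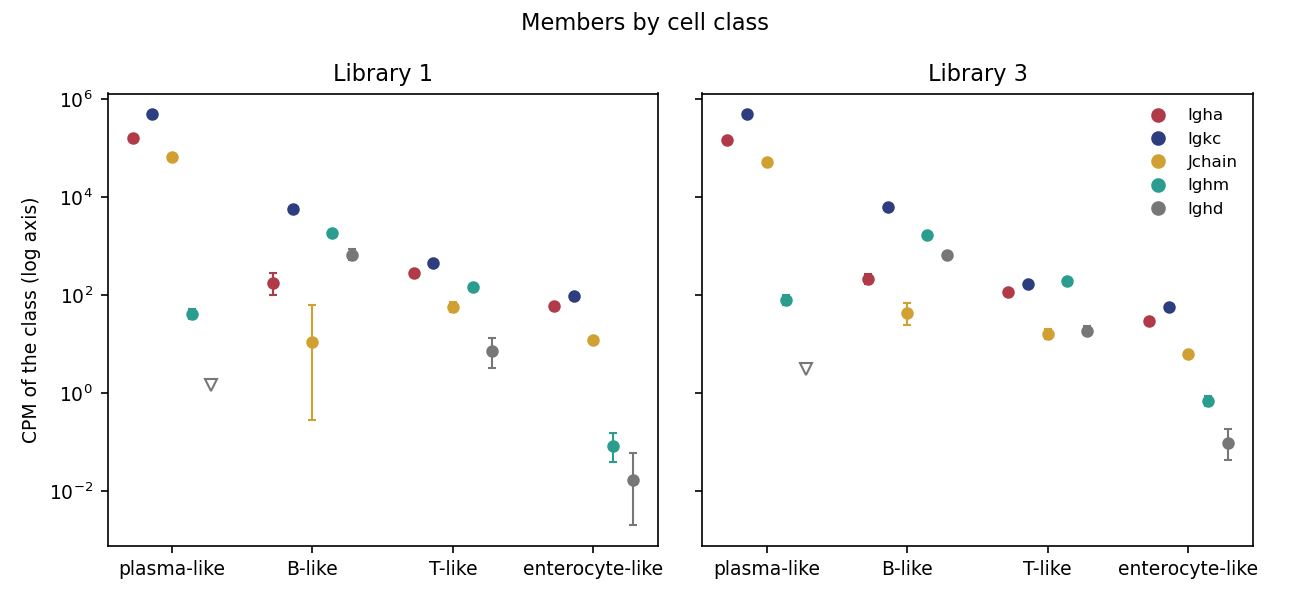
CPM, UMIs per 1000000 UMIs of the class (log axis), of Igha, Igkc, Jchain, Ighm and Ighd in plasma-like, B-like, T-like and enterocyte-like cells of libraries 1 and 3; bars are 95% exact Poisson intervals and open triangles mark the limit of 3 counts where no UMI was found. Igha, Igkc and Jchain are far higher in plasma-like than in the other 3 classes. In library 1, Igha and Jchain are lower in B-like than in T-like cells, on few counts. There, 1 T-like cell holds 170 of the 350 T-like Igha UMIs. B-like cells have 16 Igha UMIs, 11 of them in 1 cell, and 1 Jchain UMI. Ighm keeps a level near 100 CPM or above in T-like cells and is under 1 CPM in enterocyte-like cells.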

How the data were processed

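The deposited matrix holds UMI counts per gene and barcode, and per the labels libraries were made with a 10x 3' v2 protocol. Per the submitters' processing notes, Cell Ranger 6.1.1 and mm10 were used. Kept barcodes had at least 500 UMIs, at least 250 genes and at most 25% mitochondrial UMIs. The 6% of barcodes with the highest Scrublet scores per library were removed as likely doublets (1546), since the automatic threshold marked 163 of 25788. Cells were clustered in Scanpy 1.11.5 (2000 variable genes, 30 components, 15 neighbours, Leiden resolution 1) without 393 immunoglobulin and J chain genes, immune clusters were clustered again with 20 components, and clusters were named from fixed markers. Summed counts are given per 1000000 UMIs (CPM) with exact intervals, which cover counting error only. No diet contrast was run, since libraries could not be tied to samples, and no p-value is given. The script that counts 4-fold differences was checked on simulated counts with known changes; this is not a test of the real differences. Named genes are the 8 members, the other constant genes, the highest genes of each list, and the 5 genes most like Igha, Ighm and Jchain; the variable genes and single cells were added after their values were seen. The members and lists were chosen with earlier results of these data known. Library totals were 183971338, 209357877, 178052389 and 173564399 UMIs.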

Additional observations from a re-analysis of the deposited data

Results flagged for a closer look

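Among the 1546 barcodes removed for a high doublet score, which enter no class, 16 barcodes held at least 100 Igha UMIs, 11 in library 1 and 5 in library 3, while none of the 18489 barcodes that missed the quality limits did. They were set aside because they lie outside the cells that the comparisons use. The 18 removed barcodes with at least 100 heavy chain UMIs had a median of 31982 UMIs, 53.3% of them from immunoglobulin and J chain genes, against 27996 UMIs and 74.4% in the 122 plasma-like cells above the same limit. Among the 23965 kept barcodes of classes other than plasma-like and B-like, 5 also held at least 100 Igha UMIs.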

How the results depend on the processing

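No paired analysis was possible because the matrix carries library numbers that no label ties to the replicate numbers of the samples. The Igha share stayed within 98.4% to 100% and the kappa share within 94.7% to 98.4% under every alternative tried, among them doublets kept, a marker gate without clustering and other limits for a call; leaving out each library in turn gave 100% for Igha, and 96.1% to 97.5% for kappa. The gate took in 2 cells without an Igha call, the Ighm cell and the strongest Ighg1 cell, both of library 3. With doublets kept, 129 of 131 callable plasma-like cells had an Igha call, and the others were not examined one by one. The share of Ighm plus Ighd in B-like cells was 90.5% by the gate, 90.8% as a mean over cells, and 88.0% to 93.1% with each library left out (93.1% without library 3). The Igha level in enterocyte-like cells of library 1 was 57.7 CPM with at most 15% mitochondrial UMIs, 53.7 CPM in the deepest cells and 80.3 CPM as a mean over cells. In library 3 these were 27.3, 26.2 and 40.7 CPM. In library 4 the deepest cells gave 3.41 CPM and the mean over cells 4.66 CPM. Over all libraries the level was 22.7 CPM, and 10.1 to 30.7 CPM with each library left out, lowest without library 1. The order of the 4 libraries was the same in each of these. For the other moves, the cause was not tested. Shallow depth limits B-like and T-like cells, where 1 UMI is a large share of a median of 2795 and 3725.5 UMIs.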
